A study of Mus musculus with 27 samples.

Results

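The proteasome genes of the mouse kidney were followed over 9 ischemia times. Gene symbols that begin with Psma to Psmg followed by a digit were taken, Psmb8, Psmb9 and Psmb10 of the immunoproteasome were left out, and a value above 0 FPKM was required in at least 3 kidneys. FPKM is mapped fragments divided by transcript length and by the library total, so levels of different genes can be set side by side per length. Of 51 symbols with this pattern, 48 were kept, out of 19392 genes in the table. All 48 were among the 18188 genes tested, and 46 reached 1 FPKM in at least 3 kidneys, the exceptions being Psma8 and Psmb11. The pattern also took in 2 genes that encode no proteasome subunit, Psmc3ip, which encodes a meiotic recombination protein, and Psme3ip1, whose product binds the activator encoded by Psme3.

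All kidneys came from C57BL/6 mice in the uIRIx model, in which the right kidney was taken out and the left renal pedicle was clamped on a heating platform at 37°C. The clamp lasted 0 min in the sham group and 16, 18, 20, 22, 24, 26, 28 or 30 min in the others, and the left kidney was collected after 24 h. The protocol in the labels lists the sham group as a clamp of 0 min, so by this account sham mice also lost the right kidney. RNA was measured in 3 mice per time, 27 in all, in whole kidney, so fewer cells of a type and less RNA per cell cannot be told apart.

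The proteasome degrades proteins that carry ubiquitin chains. Its 20S core is a barrel of alpha and beta rings with the proteolytic sites of Psmb5, Psmb6 and Psmb7 inside, and the 19S regulatory particle, built of Psmc ATPases and Psmd non-ATPase subunits, binds, unfolds and feeds substrates into it. Interferon replaces the 3 catalytic subunits with Psmb8, Psmb9 and Psmb10 and raises the activator made of Psme1 and Psme2, while other cell stress is met through transcription factors such as Nfe2l1, which raises the constitutive subunits together.

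The RNA of nearly the whole 26S proteasome, the 20S core with its 19S caps, was higher after 28 and 30 min of ischemia than after 0 min, by less than 2-fold. At 16 to 26 min a smaller number of subunits was higher, led by the catalytic subunit Psmb5. Of the activators, Psme3 was higher at every ischemia time, whereas Psme1 had its highest levels in 2 of the 0 min kidneys.

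Facts of the whole series bear on these values. The deposited table holds no read counts, so depth is unknown in absolute terms. From 496 genes with values of about 1 fragment, relative depth was estimated at 0.956 to 1.04 of the mean kidney. Only values near the lowest of each gene entered this estimate, which itself narrows the range. It therefore cannot show that the kidneys had like depth. Kidneys 2 and 3 of 0 min stood apart from the other 25 in genes induced by interferon. The summed FPKM of 5 such genes was 51.74, 1257.44 and 888.9 in the 0 min kidneys and 20.35 to 43.23 in all others. The 0 min kidneys also differed in markers of tubular injury, which were highest in kidney 3. Havcr1 was at 2.81, 2.49 and 22.02 FPKM and Lcn2 at 11.49, 9.39 and 63.62 FPKM. Markers of kidney segments, 10 genes led by Slc34a1 and Umod, summed to 4384.11 to 4896.22 FPKM at 0 min, 1709.79 to 2080.99 at 28 min and 1347.05 to 3394.82 at 30 min. The highest 30 min value was that of kidney 3 and came mostly from Umod. Markers of leukocytes, 13 genes, summed to 13.12 to 15.89 FPKM at 0 min, 35.91 to 44.81 at 28 min and 48.79 to 53.91 at 30 min. Most of the difference was in the macrophage marker Cd68, at 3.04 to 3.61 FPKM at 0 min and 22 to 26.02 FPKM at 28 min. Adgre1, also a macrophage marker, did not rise with it, at 0.79 to 1.53 FPKM and then 0.91 to 0.97 FPKM. Ptprc was at 1.24 to 1.8 FPKM and then 1.22 to 1.73 FPKM. Of the 13 genes, 3 were called higher and 4 lower at 28 min, where 48.2% of all genes were called. Markers of other organs, 6 genes, stayed at 2.6 to 7.04 FPKM except in some kidneys of 18, 20 and 22 min, where they reached 39.49, 14.47 and 30.18. The part of these differences in the results was not tested.

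The 31 genes of the 20S core and the 19S particle, Psma8 and Psmb11 aside, were first summed in each kidney. Their share of the total FPKM was 0.464%, 0.481% and 0.488% in the 0 min kidneys. It was 0.574%, 0.551% and 0.597% at 26 min and 0.699%, 0.682% and 0.720% at 28 min. The 30 min kidneys had 0.704%, 0.739% and 0.640%. All kidneys of 28 and 30 min lay above all kidneys of 0 and 26 min, and the lowest of them was 30 min kidney 3. The group mean was 0.478% ± 0.012 (SD, n = 3) without ischemia, 0.523% ± 0.0107 after 16 min and 0.574% ± 0.0227 after 26 min. It was 0.700% ± 0.0195 after 28 min and 0.694% ± 0.0505 after 30 min. The total itself changed in make-up. The gene Kap alone held 9.26%, 8.92% and 8.68% of it in the 0 min kidneys and 5.70%, 3.47% and 4.78% at 16 min. At 26 min Kap held 1.98%, 1.75% and 3.04%, and at 28 min 1.20%, 1.19% and 1.45%. A lower share of Kap raises the shares of all other genes, and its part in the shares above was not tested.

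Each ischemia time was then compared with 0 min. The comparisons share the 0 min kidneys and are not independent of each other. Fold changes are differences of log2(FPKM + 1) after quantile normalization, which understate the change of genes at low levels, and each p-value is from limma, adjusted by Benjamini-Hochberg over all genes tested. A gene was called at an adjusted p under 0.05, and was a DEG where its log2 fold change was also beyond 1 in either direction. Overlap of groups is given in FPKM, before quantile normalization. Against 0 min, 35.5% of all genes were higher without overlap at 28 min, 33.3% at 30 min and 20.6% at 16 min. Lower without overlap were 21.4% at 28 min, 21.2% at 30 min and 14.4% at 22 min. From 28 to 30 min 16.4% were lower without overlap.

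At the shorter times fewer proteasome genes were called than at 28 and 30 min, as was the case for all genes. At 16 min 8 members were higher and 2 lower, beside 19% of all genes called. The higher ones were Psmb5, Psmb6, Psmc3, Psmd13, Psmd3, Psmd8, Psme3 and Psmc3ip. At 18 min 10 were higher and 3 lower, beside 27.8% of all genes. At 20 min the numbers were 7 and 3 (22.8% of all genes), followed by 9 and 6 after 22 min (28.8%) and 13 and 3 after 24 min (28.3%). Over these 5 times 20.8% to 33.3% of the members were called, near the shares of all genes. The members called higher were 16.7%, 20.8%, 14.6%, 18.8% and 27.1%, against 9.43%, 12.6%, 10.7%, 13.4% and 13.6% of all genes. Without quantile normalization, 22 min had 11 higher and 2 lower. Of all genes called at 22 min, 68.4% were then higher, against 46.6% with quantile normalization. At 26 min 20 were higher and 2 lower, where 30.1% of all genes were called and 14.9% called higher, among the higher all 4 structural beta subunits and the 3 constitutive catalytic subunits. Without 0 min kidneys 2 and 3, the members called numbered 1 at 16 min and 12 at 26 min, and the share of all genes called also fell, to 4.26% and 14.9%.

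After 28 min, 38 members were higher and 4 lower than at 0 min, where 48.2% of all genes were called and 24.5% were called higher. At 30 min, 34 were higher and 4 lower, beside 52.3% of all genes called and 26.9% called higher. The median log2 fold change of the members was 0.43 at 28 min and 0.46 at 30 min, and that of all genes tested was 0.00 at both. At 16 min and 26 min the members' median was 0.03 and 0.11. DEGs made up 8.48% of all genes at 28 min and 10.7% at 30 min. No subunit of the 20S core or the 19S particle was a DEG at any time. The nearest was Psmb5 at 30 min, with 0.996 on the log2 scale, which became 1.02 without 0 min kidneys 2 and 3.

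**Figure D1:**
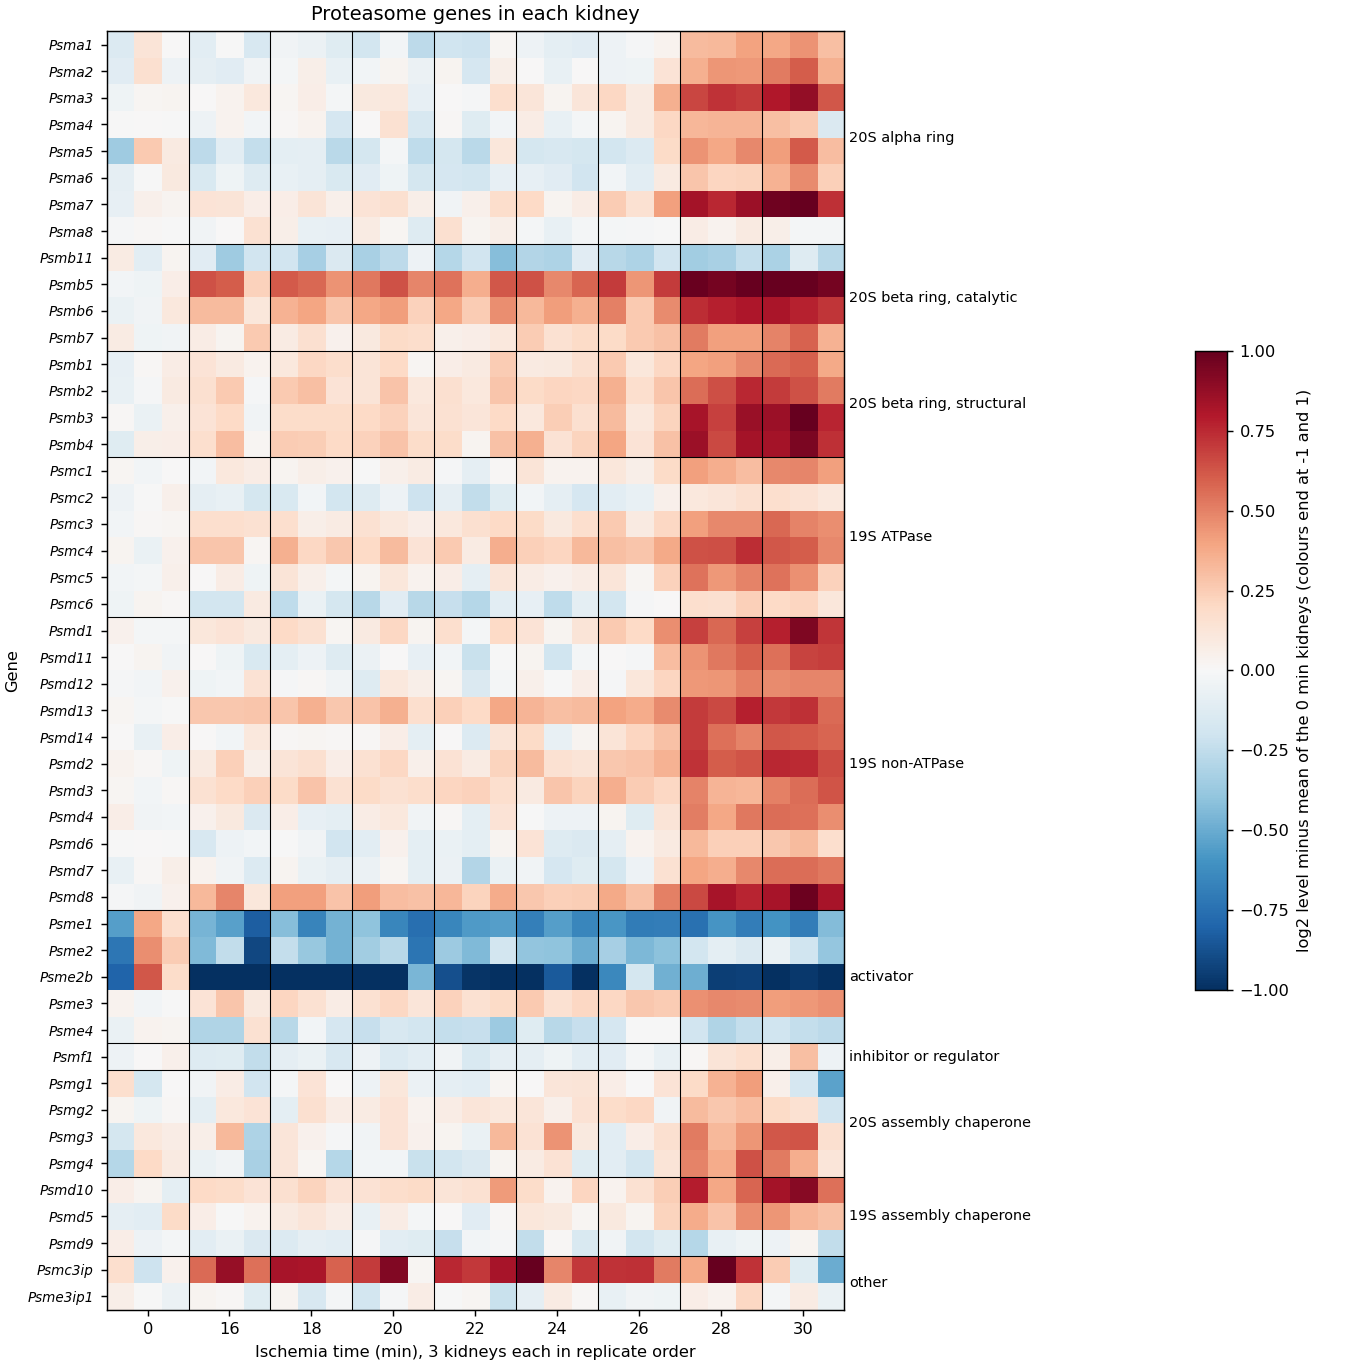
Each row is 1 proteasome gene and each column 1 kidney, 3 per ischemia time in min, and the colour is the log2(FPKM + 1) level after quantile normalization minus the mean of the 0 min kidneys, with colours ending at -1 and 1. The rows of the 31 expressed genes of the 20S core and the 19S particle are above 0 in every kidney of 28 and 30 min, except Psma4 in 30 min kidney 3, whereas Psmb11 is below 0 in all of them. Psme1, Psme2 and Psme2b are above 0 in 0 min kidneys 2 and 3 and below 0 in 0 min kidney 1 and at 28 and 30 min.

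The step from 26 to 28 min was tested directly, without the 0 min kidneys in the contrast. At this step 33 members were higher and none lower, beside 19.3% of all genes called and 10.8% called higher. The members' median log2 fold change was 0.28. By contrast, between 16 and 26 min no member was called, as was no gene at all (limma, percent called 0), although 9 members and 1717 of all genes (9.44%) had an unadjusted p under 0.05. Between 28 and 30 min 1 member was higher, Psmd3, and 2 were lower, Psmg1 and Psmc3ip, where 13.2% of all genes were called. Of the 46 proteasome genes, 25 had their highest group mean at 28 min and 14 at 30 min. The others peaked at 0 min (4 genes), 22 min (2) or 26 min (1).

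**Figure D2:**
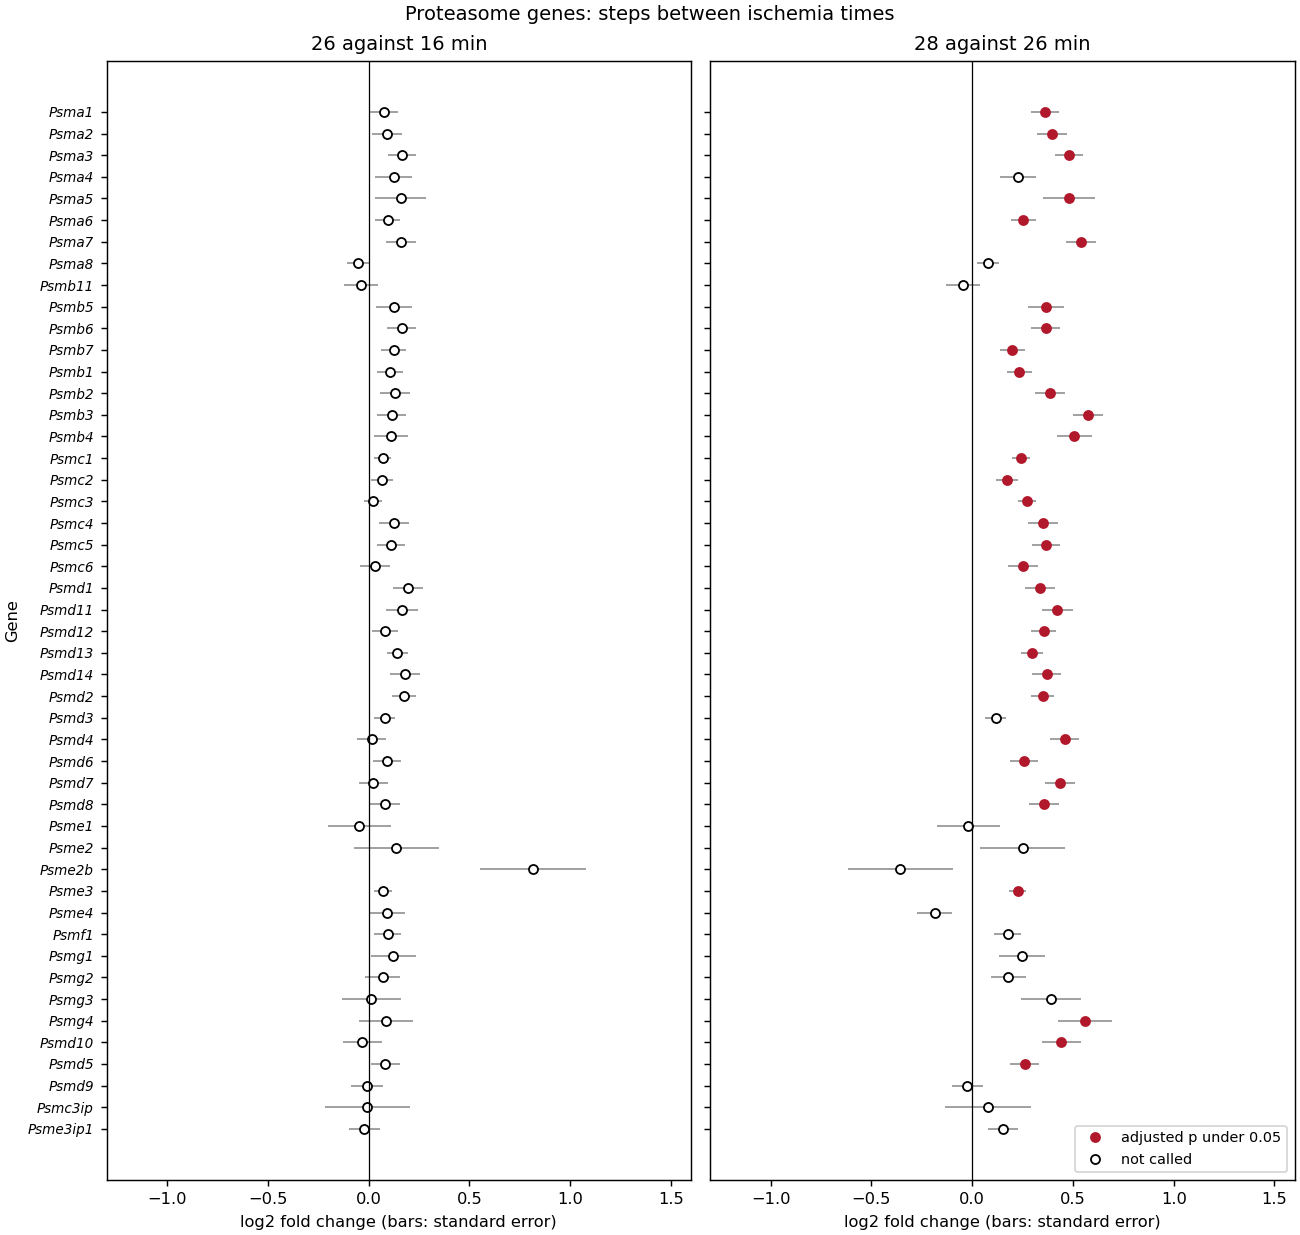
Points are log2 fold changes of the 48 genes with standard errors from limma, 26 against 16 min on the left and 28 against 26 min on the right, filled red where the adjusted p was under 0.05. On the left no point is filled, and on the right 33 are, all above 0.

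Because 2 of the 0 min kidneys stood apart, 16 min was also taken as the reference, a choice made after the data were seen. The 16 min group was not uniform either. In its kidney 3 the tubular injury marker Havcr1 was at 35.08 FPKM, beside 331.86 and 574.47 in kidneys 1 and 2. Lcn2 was at 31.43 FPKM, beside 387.9 and 410.34. Then 39 members were higher and none lower at 28 min, beside 29.2% of all genes called, and 36 were higher and 1 lower at 30 min, beside 40.6%. The members' medians were 0.41 and 0.40. With this reference all 17 subunits of the 19S particle were called higher at both times.

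The catalytic beta subunits cut the peptide chain, Psmb6 after acidic, Psmb7 after basic and Psmb5 after hydrophobic residues. Psmb5 was measured at 120.86, 119.77 and 131.29 FPKM in the 0 min kidneys and at 197.17, 188.8 and 143.79 FPKM at 16 min. It reached 234.79, 231.28 and 249.79 FPKM at 28 min and 235.01, 241.72 and 207.42 FPKM at 30 min. Every ischemic kidney of these 3 times was above every 0 min kidney, and 28 and 30 min overlapped. The log2 fold change against 0 min was 0.49 ± 0.09 (SE) at 16 min (limma, adjusted p = 0.000973), 0.62 at 26 min (adjusted p = 6.15e-05) and 0.98 at 28 min (adjusted p = 4.93e-08). Psmb5 was the member with the largest rise at both 28 and 30 min, and its rise from 26 to 28 min was 0.37 ± 0.09 (limma, adjusted p = 0.00726).

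Psmb6 stood at 108.42, 112.63 and 124.18 FPKM at 0 min, at 179.91, 187.59 and 197.31 FPKM at 28 min and at 186.32, 187.09 and 164.67 FPKM at 30 min. Psmb7 stood at 124.84, 114.11 and 114.5 FPKM at 0 min, at 159.86, 148.71 and 153.52 FPKM at 28 min and at 154.51, 166.97 and 134.24 FPKM at 30 min. For both genes the kidneys of 28 and 30 min lay above all 0 min kidneys. The log2 fold changes at 28 min were 0.78 ± 0.07 for Psmb6 and 0.45 ± 0.06 for Psmb7 (limma, adjusted p = 5.94e-08 and 6.42e-06). Psmb6 was called from 16 min on (log2 fold change 0.25, limma, adjusted p = 0.0218), whereas Psmb7 was first called at 24 min (0.20, adjusted p = 0.0198). Exons of Psmb7 overlap those of Nek6 on the opposite strand by 253 bases, and whether strand was used in counting is not stated. Further overlaps on the same strand are Psmb5 with Mir686 (109 bases), Psmd1 with Gm21972 (154) and Psmg3 with Gm26938 (237). On the opposite strand they include Psma4 with AY074887 (114), Psmb8 with Gm20496 (117) and Psmb9 with Tap1 (212).

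Their immunoproteasome counterparts, left out by the rule, had their highest levels at 0 min. Psmb8, which takes the place of Psmb5, was measured at 12.15, 114.88 and 83.69 FPKM at 0 min and at 5.9, 6.61 and 7.39 FPKM at 28 min. The high values belong to the 2 kidneys of 0 min with raised interferon-induced genes. Psmb9, which replaces Psmb6, had 4.75, 78.89 and 45.97 FPKM at 0 min and 2.97, 4.54 and 2.59 at 28 min, and Psmb10, which replaces Psmb7, had 10.7, 75.85 and 53.17 FPKM and then 21.17, 23.56 and 21.73. From 26 to 28 min none of the 3 was called, with log2 fold changes of 0.03 for Psmb8, 0.17 for Psmb9 and 0.41 for Psmb10. Immunoproteasome subunits made up 7.23%, 43.8% and 33.1% of the FPKM of the 6 catalytic genes in the 0 min kidneys, and 4.97% to 5.76% at 28 min. The value of 0 min kidney 1 was also above those of 28 min.

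**Figure D3:**
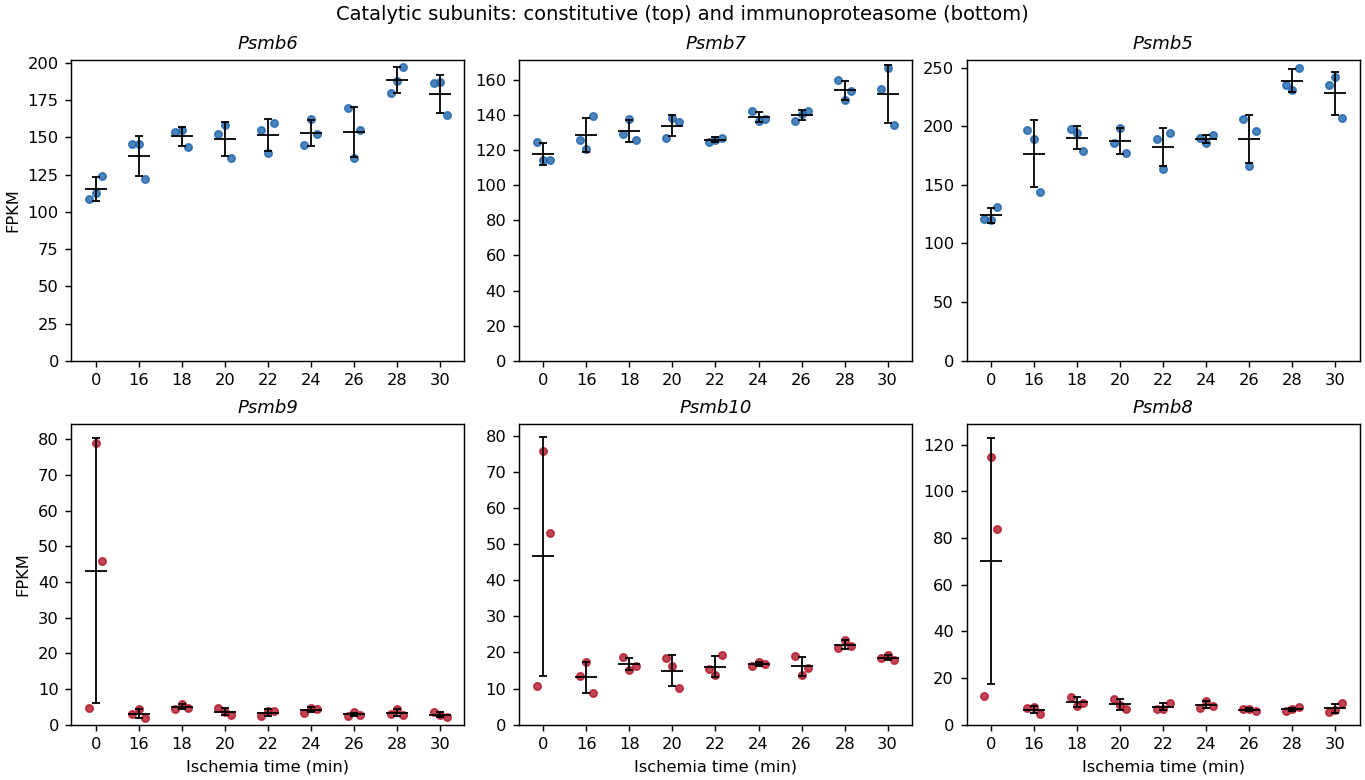
FPKM of the constitutive catalytic subunits (top) and of the immunoproteasome subunit that replaces each (bottom) against ischemia time in min. Points are kidneys and bars are the mean and SD of 3. Psmb5 in the 28 min kidneys sits between 231.28 and 249.79 FPKM, above all 0 min kidneys, whereas Psmb8 is high in 0 min kidneys 2 and 3.

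The 250 bases before the start of Psmb5 and of Psmb8 are shown because these subunits take the same place in the core. The sequences are those of RefSeq on GRCm38.p6, 5′ to 3′ on the strand of the gene, chr14:54617996-54618245 on the minus strand for Psmb5 and chr17:34197945-34198194 on the plus strand for Psmb8. Capitals mark a match to the core of the antioxidant response element, TGANNNNGC, in Psmb5 and to the gamma-activated site, TTCNNNGAA, in Psmb8.
Psmb5: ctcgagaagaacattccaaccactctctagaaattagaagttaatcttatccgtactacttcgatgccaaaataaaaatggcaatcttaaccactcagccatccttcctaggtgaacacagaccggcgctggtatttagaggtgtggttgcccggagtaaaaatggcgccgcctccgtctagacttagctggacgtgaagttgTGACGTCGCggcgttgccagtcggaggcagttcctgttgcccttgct
Psmb8: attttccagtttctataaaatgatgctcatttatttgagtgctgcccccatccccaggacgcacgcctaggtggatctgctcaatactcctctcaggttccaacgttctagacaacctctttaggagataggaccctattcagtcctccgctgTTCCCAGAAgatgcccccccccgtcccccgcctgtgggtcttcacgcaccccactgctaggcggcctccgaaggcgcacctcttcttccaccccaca

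The match begins 47 bases before the start of Psmb5 and 97 bases before that of Psmb8. Promoters were matched for 40 of the 48 members and searched on both strands, each motif on its own. TGANNNNGC was present in 17 of the 40 (42.5%), against 38.7% of the 27025 genes with a promoter. CCAAT, the CCAAT box, was present in 15 of the 40 (37.5%), against 37.5%. The interferon-stimulated response element, 2 copies of TTTC with 2 bases between them, was present in 3 (7.5%, against 3.46%) and TTCNNNGAA in 1 (2.5%, against 8.13%). These shares describe the letters of the windows and say nothing of binding.

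The other 4 beta subunits, which have no active site, were all higher at 28 and 30 min. Psmb3 moved most, from 126.32, 119.36 and 132.2 FPKM at 0 min to 212.85, 194.62 and 229.59 at 28 min and 215.15, 247.93 and 185.17 at 30 min. Psmb1 moved least, from 107.59, 115.36 and 120.47 FPKM to 144.62, 146.32 and 158.02 and then 156.73, 164.22 and 133.07. In both genes the kidneys of 28 and 30 min did not overlap with those of 0 min. At 30 min the log2 fold change was 0.89 ± 0.07 for Psmb3 and 0.51 ± 0.06 for Psmb1 (limma, adjusted p = 4.40e-09 and 1.07e-06). Psmb2 and Psmb4 lay between them, with 0.62 and 0.84.

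The alpha subunits form the outer rings that gate the barrel. Of the 7 alpha genes expressed in most tissues, all were higher at 28 min and 6 at 30 min. The exception at 30 min was Psma4, the most abundant of the 31 at 0 min. It was measured at 174.32, 171.59 and 171.66 FPKM at 0 min, at 202.3, 205.62 and 210.17 FPKM at 28 min and at 189.99, 190.81 and 137.08 FPKM at 30 min. The low value is that of kidney 3, and the other 30 min kidneys lay above all 0 min kidneys. The log2 fold change of Psma4 was 0.34 ± 0.09 at 28 min and 0.14 ± 0.09 at 30 min (limma, adjusted p = 0.00406 and 0.219).

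Psma7 had the largest change in the alpha ring. It rose from 89.17, 101.18 and 98.7 FPKM at 0 min to 163.08, 155.02 and 173.01 at 28 min and 176.23, 191.38 and 143.12 at 30 min, with no overlap. Its log2 fold change was 0.92 ± 0.07 at 30 min (limma, adjusted p = 4.61e-09), against 0.11 at 16 min (adjusted p = 0.341). From 26 to 28 min it rose by 0.54 ± 0.07 (limma, adjusted p = 8.22e-05). No alpha subunit was called at any time from 16 to 24 min.

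The tissue-restricted core subunits were at low levels. Psma8, the alpha subunit of the testis, ranged from 0 to 0.22 FPKM over the 27 kidneys. Psmb11, the beta subunit of the thymus, had 0.66, 0.43 and 0.61 FPKM at 0 min and 0.29, 0.33 and 0.39 at 28 min, a log2 fold change of -0.30 ± 0.08 (limma, adjusted p = 0.00466). These values are too low for the ratio to be read closely.

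In the 19S particle, the 6 Psmc ATPases form the ring that unfolds the substrate. At 28 min 5 of 6 were higher, and at 30 min again 5 of 6. Psmc4 changed most. Its values were 76.43, 71.16 and 78.46 FPKM at 0 min, 121.43, 120.09 and 131.86 FPKM at 28 min and 116.58, 116.45 and 99.35 FPKM at 30 min, with no overlap. The log2 fold change was 0.67 ± 0.07 at 28 min and 0.57 ± 0.07 at 30 min (limma, adjusted p = 4.30e-07 and 2.00e-06).

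Psmc2 and Psmc6 were the ATPases that moved least. Psmc2 stood at 67.4, 68.87 and 72.48 FPKM at 0 min, at 78.95, 79.05 and 83.27 FPKM at 28 min and at 79.75, 79.23 and 73.89 FPKM at 30 min. The groups did not overlap, yet the log2 fold change of 0.13 ± 0.05 was not called at 28 min (limma, adjusted p = 0.0568) and was called at 30 min with 0.14 (adjusted p = 0.0384). Psmc6 showed the reverse, with 0.19 ± 0.07 at 28 min (limma, adjusted p = 0.0427) and 0.18 at 30 min (adjusted p = 0.0545). Both genes were called lower than 0 min at 22 min, by -0.15 and -0.21 on the log2 scale (limma, adjusted p = 0.0440 and 0.0413), with kidneys that overlapped in FPKM. Without quantile normalization neither was called at 22 min (-0.075 and -0.13, limma, adjusted p = 0.373 and 0.189). Both were called higher at 28 than at 26 min.

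The 11 Psmd non-ATPase subunits receive the ubiquitin chain and cut it off, the latter by the metalloprotease Psmd14. All 11 were higher at both 28 and 30 min. Psmd8 changed most, from 95.12, 94.74 and 101.43 FPKM at 0 min to 148.09, 164.75 and 163.91 at 28 min and 161.1, 185.61 and 153.11 at 30 min. Psmd6 changed least, from 54.89, 54.55 and 55.37 FPKM to 72.74, 68.02 and 69.34 and then 68.75, 70.99 and 60.62. Even in Psmd6 no kidney of 28 or 30 min overlapped with 0 min. The log2 fold changes at 30 min were 0.87 ± 0.08 for Psmd8 and 0.25 ± 0.07 for Psmd6 (limma, adjusted p = 1.05e-08 and 0.00537).

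Psmd13, Psmd3 and Psmd8 had an earlier part of their rise, each called higher at every time from 16 min on. Psmd8 was higher by 0.31 at 16 min, the largest change of the 19S particle at that time. Psmd13 was higher by 0.27 ± 0.05 at 16 min and by 0.71 ± 0.05 at 28 min (limma, adjusted p = 0.00145 and 5.35e-09), and its exons overlap those of Sirt3 on the opposite strand by 152 bases. Psmd3 was higher by 0.20 at 16 min and by 0.39 at 28 min (limma, adjusted p = 0.0152 and 5.98e-06). It was the 19S subunit whose step from 26 to 28 min was not called (0.12 ± 0.05, adjusted p = 0.147). It was also the one that rose from 28 to 30 min (0.17 ± 0.05, limma, adjusted p = 0.0396), from 113.19, 102.56 and 105.79 FPKM to 111.3, 116.61 and 113 FPKM, with overlap. Psmd1, a scaffold subunit, reached 78.1, 88.46 and 72.48 FPKM at 30 min from 45.6, 43.44 and 44.08 FPKM at 0 min, without overlap and with a log2 fold change of 0.81 ± 0.07 (limma, adjusted p = 1.67e-08).

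By role, the log2 fold changes differed in size more than in sign. The median over the 14 core subunits was 0.55 at 28 min and 0.57 at 30 min, and over the 17 subunits of the 19S particle 0.47 and 0.55. For the step from 26 to 28 min they were 0.38 and 0.35. All 31 genes had a log2 fold change above 0 in both comparisons with 0 min and in the step from 26 to 28 min.

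The order of levels shifted with these sizes. At 0 min Psma4 led with 172.5 ± 1.56 FPKM (SD, n = 3), followed by Psmb4 with 129.1 ± 10.7, Psmb3 with 126.0 ± 6.43 and Psmb5 with 124.0 ± 6.36, of which the last 3 did not differ beyond their spread. At 30 min Psmb5 led with 228.1 ± 18.2 FPKM, followed by Psmb3 with 216.1 ± 31.4 and Psmb4 with 214.3 FPKM (186.37 to 239.68), again within their spread, and Psma4 was 5th with 172.6 ± 30.8. Psmd14 was lowest of the 31 at both times, with 33.63 ± 2.02 and 53.07 ± 1.80 FPKM.

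The activators open the core without the 19S particle. Psme1 and Psme2 form the interferon-inducible 11S ring. Psme1 had 86.13, 170.98 and 146.36 FPKM at 0 min, 77.44, 85.56 and 81.89 FPKM at 28 min and 83.62, 78.77 and 88.26 FPKM at 30 min. The 0 min kidney 1 lay near the ischemic kidneys, and kidneys 2 and 3 lay far above all others. Psme1 was called lower at every ischemia time, with -0.68 ± 0.16 at 28 min (limma, adjusted p = 0.00123), and at none of them without 0 min kidneys 2 and 3 (-0.13 at 28 min, adjusted p = 0.517).

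Psme2 had 51.93, 126.54 and 108.48 FPKM at 0 min, 79.92, 84.56 and 83.64 FPKM at 28 min and 84.79, 78.2 and 65.26 FPKM at 30 min. The 28 and 30 min kidneys lay between 0 min kidney 1 and the other two 0 min kidneys. Its log2 fold change at 28 min was -0.15 ± 0.21 (limma, adjusted p = 0.612). Without 0 min kidneys 2 and 3 it was 0.58 (adjusted p = 0.0268), in the opposite direction. Against 16 min it was 0.39 at 28 min (limma, adjusted p = 0.184). Psme2b, a paralog whose reads may be shared with Psme2, was at 0.53, 2.91 and 1.94 FPKM at 0 min and between 0 and 1.54 FPKM in all other kidneys. It was called lower at every ischemia time but 26 min, and was a DEG at 16, 18, 24 and 30 min, with -1.25, -1.29, -1.28 and -1.11. DEGs were 2.25%, 3.06% and 3.12% of all genes at the first 3 of these. Without 0 min kidneys 2 and 3 it was called at none (-0.45, -0.49, -0.48 and -0.31).

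Psme3, which forms a nuclear activator that does not depend on interferon, also rose. It was measured at 49.26, 46.79 and 48.41 FPKM at 0 min, at 70.03, 70.69 and 71.72 FPKM at 28 min and at 66.92, 67.74 and 65.37 FPKM at 30 min. The 3 groups did not overlap, and the 30 min kidneys lay below those of 28 min. Psme3 was called higher at every ischemia time, by 0.17 ± 0.04 at 16 min, 0.25 at 26 min and 0.47 at 28 min (limma, adjusted p = 0.00984, 0.000358 and 6.27e-08). From 28 to 30 min the difference was -0.03 ± 0.04 (limma, adjusted p = 0.705).

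Psme4, a large activator of the nucleus, was called lower at 22, 28 and 30 min. Its values were 27.68, 29.86 and 30.63 FPKM at 0 min, 27.69, 26.01 and 27.17 FPKM at 28 min and 27.14, 26.04 and 25.57 FPKM at 30 min. At 22 min they were 26.07, 26.06 and 24.1 FPKM. The 22 and 30 min kidneys lay below all 0 min kidneys, and 1 kidney of 28 min overlapped. The log2 fold changes at 22, 28 and 30 min were -0.28, -0.24 and -0.23, each ± 0.09 (limma, adjusted p = 0.0241, 0.0285 and 0.0337).

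Psmf1, an inhibitor of the core in vitro, had 11.15, 11.55 and 12.34 FPKM at 0 min, 12.96, 14.66 and 14.73 FPKM at 28 min and 13.32, 15.81 and 12.38 FPKM at 30 min. These groups did not overlap with 0 min in FPKM. On the normalized scale used by the test, 28 min kidney 1 and 30 min kidney 3 lay within the 0 min range. Neither time was called against 0 min (0.11 and 0.10 ± 0.07, limma, adjusted p = 0.200 and 0.199). Against 16 min both were called, each with 0.27 (limma, adjusted p = 0.00378 and 0.00239).

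**Figure D4:**
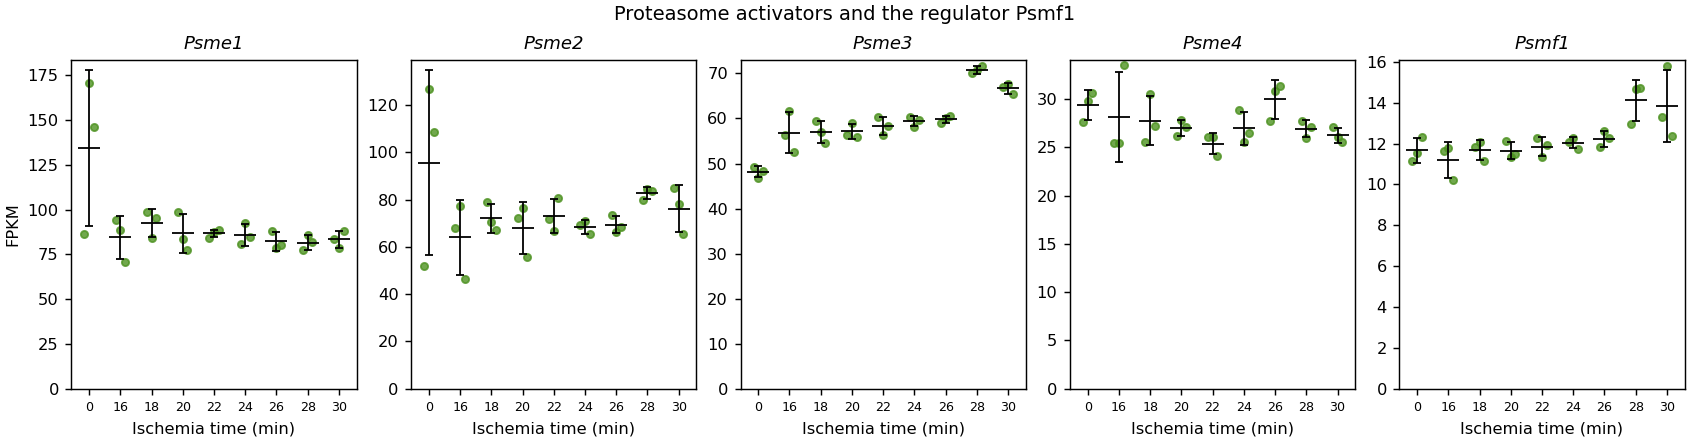
FPKM of the activators and of Psmf1 against ischemia time in min, with points for kidneys and bars for the mean and SD of 3. Psme3 lies at 46.79 to 49.26 FPKM at 0 min and at 70.03 to 71.72 FPKM at 28 min, whereas Psme1 and Psme2 are highest in 2 kidneys of 0 min.

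The chaperones that assemble the core and the 19S particle are not part of the finished enzyme. All 4 Psmg chaperones of the core were higher at 28 min, and 2 of 4 at 30 min. Psmg1 had 28.29, 22.21 and 25.86 FPKM at 0 min, 31.55, 35.36 and 37.46 FPKM at 28 min and 28.12, 23.63 and 18.17 FPKM at 30 min. It rose to 28 min and was back in the range of 0 min or below it at 30 min. The fall from 28 to 30 min was -0.54 ± 0.11 (limma, adjusted p = 0.00442), after a rise of 0.32 ± 0.11 at 28 against 0 min (adjusted p = 0.0238). Its partner Psmg2 was higher at 28 min by 0.30 (limma, adjusted p = 0.00703) and was not called at 30 min (0.05, adjusted p = 0.664).

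Psmg3, which acts with Psmg4 in the same assembly, was also higher at 30 min. It had 8.02, 9.95 and 9.94 FPKM at 0 min, 15.07, 13.34 and 14.3 FPKM at 28 min and 16.2, 16 and 11.47 FPKM at 30 min, without overlap. Its log2 fold change at 30 min was 0.47 ± 0.15 (limma, adjusted p = 0.0106), and that of Psmg4 0.34 ± 0.13 (adjusted p = 0.0413). Among chaperones of the 19S base, Psmd10 rose by 0.76 ± 0.10 and Psmd5 by 0.36 ± 0.07 at 30 min (limma, adjusted p = 1.57e-06 and 0.000224). Psmd9 lay between 11.19 and 12.37 FPKM at 0 min and between 10.74 and 12.73 FPKM at 30 min and was called in no comparison.

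Of the 2 genes caught by their symbols alone, Psmc3ip had 3.41, 2.35 and 3.11 FPKM at 0 min, 4.53, 8.53 and 6.02 FPKM at 28 min and 4.16, 2.78 and 2.1 FPKM at 30 min. It was higher at 28 min by 0.73 ± 0.21 (limma, adjusted p = 0.00714) and lower at 30 than at 28 min by -0.85 ± 0.21 (adjusted p = 0.0125). Its exons overlap those of Mlx on the opposite strand by 385 bases. Psme3ip1 was called in no comparison with 0 min.

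Genes around the proteasome were counted by lists. Beside these counts stand the 48.2% of all genes called at 28 min and the 52.3% called at 30 min. Of 4 further subunits and assembly factors, 3 were higher at 28 and at 30 min, Adrm1 and Sem1 of the 19S particle and Pomp, which matures the core. Pomp had 99.3, 121.42 and 108.28 FPKM at 0 min and 162.73, 160.21 and 179.14 FPKM at 28 min, without overlap, a log2 fold change of 0.66 ± 0.10 (limma, adjusted p = 1.59e-05). At 30 min it had 162.52, 161.4 and 127.7 FPKM. Of 3 enzymes bound to the particle, the deubiquitinases Usp14 and Uchl5 were higher at both times and the ligase Ube3c was not called. Of 14 genes of substrate delivery and ubiquitin, 8 were higher and 2 lower at 28 min, and 9 and 2 at 30 min. The lower ones at both times were the ubiquitin gene Ubb and the shuttle Ubqln1, while Rps27a, which encodes ubiquitin fused to a ribosomal protein, was higher (0.95 at 28 min, limma, adjusted p = 1.73e-06).

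Of 5 genes of the transcriptional control of the proteasome, 1 was higher and 3 lower at 28 min (48.2% of all genes called). At 30 min the numbers were 1 and 2 (52.3%). Nfe2l1 had 55.31, 53.28 and 51.93 FPKM at 0 min, 44.73, 44.67 and 41.37 FPKM at 28 min and 47.7, 49.98 and 65.13 FPKM at 30 min. It was below all 0 min kidneys at 28 min (-0.38 ± 0.11, limma, adjusted p = 0.00642) and overlapped with them at 30 min (-0.02, adjusted p = 0.931), where kidney 3 was highest. Nfe2l2, which raises antioxidant genes and some core subunits, had 41.3, 38.08 and 39.25 FPKM at 0 min, 69.99, 73.25 and 66.34 FPKM at 28 min and 72.3, 70.79 and 77.54 FPKM at 30 min. The groups did not overlap with 0 min, and the log2 fold change was 0.85 ± 0.08 at 30 min (limma, adjusted p = 4.74e-08). Ddi2, the protease that activates the product of Nfe2l1, was lower at both times, and Ngly1, which deglycosylates it, likewise.

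Within the 30 min group, kidney 3 had the lowest FPKM of the 3 for 43 of the 48 members. In other groups 1 kidney also held most of the lowest values, with 35 members in 16 min kidney 3 and 34 in 22 min kidney 2. The 26S share of 30 min kidney 3 was 0.640%, beside 0.704% and 0.739%. Its markers of kidney segments summed to 3394.82 FPKM, beside 1405.97 and 1347.05. These markers did not move together. Umod of the thick ascending limb was at 2033.56 FPKM in kidney 3, beside 462.94 and 454.38. Slc12a1 (142.13, beside 39.3 and 43.22) and Slc12a3 (165.72, beside 94 and 104.54) of the loop and distal tubule were also higher. So was Aqp2 of the collecting duct (468.05, beside 166.06 and 171.96). The proximal tubule genes Slc34a1 (450.14, beside 460.13 and 410.57) and Lrp2 (14.08, beside 31.53 and 22.32) were not higher, nor were Cubn and Slc5a2. Without this kidney 39 members were called at 30 min, against 38 with it, where 49.9% and 52.3% of all genes were called. Whether these markers and its subunit levels are connected was not tested.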

How the data were processed

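RNA-Seq of 27 left kidneys, 3 mice at each of 9 ischemia times, was made by the authors on the DNBSEQ platform. The values are deposited FPKM per gene symbol and kidney, which the study's text calls RPKM. The submitters' processing notes name Bowtie2, RSEM, DESeq2 and the build GRCm38.p6, without versions, and strand use in counting is not stated. No counts were used, since low FPKM values gave near-whole fragments for 72.7% of values only (tolerance 0.15). FPKM were taken as log2(FPKM + 1), which is a pseudocount of 1, quantile normalized between kidneys and fitted in limma 3.58.1 (R 4.3.3) with 1 mean per time over the 18188 genes above 0 in at least 3 kidneys, with no covariate. Benjamini-Hochberg adjustment was over all of these. The DEG threshold is that of the study. With 3 kidneys against 3, an exact permutation test cannot give a p below 0.1, so p-values come from limma alone. The replicates are different mice, and precision is judged from their spread.

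Members, lists of related genes and markers were chosen with earlier results of these data known. A gene of the list on substrate delivery and ubiquitin is not reported here. Values per kidney were to be given for the activators, Psmf1, the catalytic subunits, the highest and lowest member at 30 min of each role with more than 3 members, and Nfe2l1, Nfe2l2 and Pomp. Psma4, Psmc6, Psmd1, Psmd3, Psmd13 and Psmc3ip, and the values of Psmg2, Psmg4, Psmd5, Psmd10 and the listed genes outside this rule, were added after their values were seen. Promoters (250 bases before each start) and positions are from RefSeq and exon overlaps from GENCODE, both on GRCm38. The calculation was tested on simulated data. No kidneys shared identical values. Same-numbered kidneys did not deviate together. Alternatives were another pseudocount, a filter at 1 FPKM, no quantile normalization, a constant sum, fits of 2 groups, a replicate block and leaving out kidneys. Figures used matplotlib 3.10.9 (Python 3.11.15).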

Additional observations from a re-analysis of the deposited data

How the results depend on the processing

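The rise at 28 and 30 min, and the step from 26 to 28 min, kept their direction under every alternative run. Counts of members called at 16 to 26 min were less stable. A pseudocount of 0.1 FPKM gave 6 members at 20 against 0 min, and the share of all genes called with it is not given here. Without quantile normalization the median log2 fold change of the members was 0.084 at 16, 0.12 at 18, 0.090 at 20, 0.15 at 24, 0.18 at 26 and 0.49 at 28 against 0 min, and 0.34 at 30 against 16 min. With FPKM rescaled to a constant sum it was 0.11, 0.090, 0.084, 0.15, 0.21, 0.48 and 0.34 for the same 7 comparisons. These scalings raised the share of higher genes among all called at 16 against 0 min from 49.5% to 74.1% and 77.8%, and moved the median of all genes by under 0.1. A fit of the 2 groups alone called 0 members at 16 against 0 min, 13 at 26 against 0 min and 0 at 30 against 28 min. It has fewer kidneys. The share of all genes called in this fit is not given here, so these counts do not single out the members. Without 0 min kidneys 2 and 3, an alternative added after the data were seen, the members called numbered 1, 4, 2, 4, 3 and 12 at 16, 18, 20, 22, 24 and 26 min, beside 4.26%, 11.1%, 6.61%, 12.3%, 11.7% and 14.9% of all genes, the lone 0 min kidney being assumed to vary like the other groups. The medians were then 0.074 at 18, 0.078 at 20, 0.18 at 26 and 0.48 at 28 min. In that setting Psmb10 turned to 0.11, 0.49, 0.31, 0.43, 0.48, 0.42 and 0.83 at 16 to 28 min, Psme1 to 0.029 at 18 min, Psme2 to 0.58 and 0.50 at 28 and 30 min, and Psme2b to 0.012 at 28 min.

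Leaving out 1 kidney at a time gave 5 to 13 members at 16 against 0 min, 8 to 12 at 18, 4 to 11 at 20, 8 to 16 at 22, 8 to 14 at 24, 14 to 21 at 26 and 1 to 5 at 30 against 28 min. The share of all genes called moved as well, from 9.42% to 28.4% at 16 against 0 min and 14.2% to 22.4% at 20. It was 19.4% to 24.1% at 18, 20.2% to 25.6% at 22, 20.1% to 24.9% at 24 and 22.7% to 26.8% at 26 min. At 30 against 28 min it ran from 4.85% to 17.9%. The lowest counts came without 0 min kidney 2 at 16, 18, 20 and 22 min, without 24 min kidney 1 and without 26 min kidney 1. Leaving out 0 min kidney 2 also gave 10 members at 24 min, and leaving out 16 min kidney 2 gave 5 at 16 min and 20 min kidney 1 gave 6 at 20 min. At 30 against 28 min, 28 min kidney 2 and 30 min kidney 3 each left 1 and 30 min kidney 1 left 5. The median ranged from 0.39 to 0.46 at 28 against 0 min and from 0.0019 to 0.044 at 18 against 0 min. At 28 and 30 against 0 min, 37 to 40 and 34 to 39 members were called. The share of all genes called was then 42.7% to 45.3% and 47% to 49.9%.

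The replicate numbers do not pair the kidneys, since the deviations of same-numbered kidneys had a mean correlation of 0.0087 over 108 pairs of kidneys. With the replicate number as a block, 10, 12, 10, 14, 14, 21, 42 and 39 members were called at 16 to 30 against 0 min and 33 at 28 against 26 min, none of which moved by over 1.5 times. The share of all genes called with the block is not given here.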
